A study of Mus musculus with 9 samples.

Results

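The miR-15 and miR-16 family was followed in small extracellular vesicles of mouse serum. Its members were taken by name from the table of known microRNAs: mmu-miR-15a-5p, mmu-miR-15b-5p, mmu-miR-15b-3p, mmu-miR-16-5p, mmu-miR-195a-5p, mmu-miR-322-5p and mmu-miR-497a-5p (the mouse prefix is left out below). They are 7 of 1169 rows in the count tables. MicroRNA reads were counted in 9 libraries, 3 for each of 3 groups. The first group (Chow-fed WT) is labelled wild type and was fed chow. The second (HFD-fed WT) is labelled wild type and was fed a high fat diet. The third (HFD-fed Sirt3 AKI) was fed the same diet and is labelled as overexpressing Sirt3, a mitochondrial deacetylase, in adipose tissue alone. The library names of HFD-fed WT carry a Sirt3 knock-in code that those of Chow-fed WT lack, so diet and mouse line cannot be told apart in HFD-fed WT against Chow-fed WT. The sources used here do not give the driver of the overexpression, the age and sex of the mice, or the number of animals behind a library. The labels name separate samples but not separate animals, so the p-values reflect no more than the spread among these samples, which may be technical.

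MicroRNAs are short RNAs that guide Argonaute proteins to messenger RNAs, and the bases near their 5′ end, called the seed, do most of the target pairing. Members of this family share a seed and are known to repress cyclins, cyclin-dependent kinases and the survival factor Bcl2. They are made from several gene clusters, of which the miR-15/16 clusters are active in many tissues and in the red cell lineage. In serum, miR-16-5p is an abundant microRNA and is known to be released from red cells together with miR-451a and miR-486a-5p.

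The mature sequences are shown because they separate the members into 2 seeds. Capitals mark bases 2 to 8, the seed, and all sequences are from RefSeq on GRCm38.p6, where all 7 members had an entry.
miR-15a-5p: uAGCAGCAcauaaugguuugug
miR-15b-5p: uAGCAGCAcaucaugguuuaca
miR-16-5p: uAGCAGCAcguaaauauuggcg
miR-195a-5p: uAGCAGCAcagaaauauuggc
miR-322-5p: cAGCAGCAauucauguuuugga
miR-497a-5p: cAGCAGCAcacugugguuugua
miR-15b-3p: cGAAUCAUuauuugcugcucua
miR-503-5p: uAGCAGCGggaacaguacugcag

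The first 6 sequences share 1 seed. miR-15b-3p, the opposite arm of the miR-15b precursor, has another, and miR-503-5p, a neighbour of miR-322 that is no member, differs from the shared seed in its last base. In the reference, 10 mature microRNAs carried the shared seed, and the 6 of them that the count table holds are the 6 members listed above. Counted from 1 at the 5′ end, miR-16-5p and miR-195a-5p differed at 2 of 21 positions (G10A and U11G). miR-15a-5p and miR-15b-5p differed at 4 of 22 (A12C, G20A, U21C and G22A). No member had a row of counts identical to that of another microRNA.

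The hairpin of miR-15b is shown because the ratio of its arms is one of the results. Capitals mark the 5p arm and then the 3p arm.
Mir15b: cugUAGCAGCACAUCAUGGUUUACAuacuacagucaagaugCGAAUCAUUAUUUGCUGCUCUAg

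This hairpin lies at chr3:69009772-69009835 on the plus strand of GRCm38.p6, in an intron of Smc4, a condensin subunit gene read on the same strand. The Mir16-2 copy of miR-16-5p lies in the same intron at chr3:69009918-69009939. miR-15a-5p (chr14:61632075-61632096) and the Mir16-1 copy of miR-16-5p (chr14:61631936-61631957) lie on the minus strand in an intron of the noncoding gene Dleu2. The copies from chromosomes 3 and 14 give the same mature miR-16-5p, so its counts cannot be assigned to one locus. miR-497a-5p (chr11:70234730-70234751, plus strand) and miR-195a-5p (chr11:70235062-70235082) form another cluster. miR-322-5p (chrX:53054306-53054327, minus strand) and miR-503-5p (chrX:53054027-53054049) form a cluster of their own.

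Library totals lay between 225002 and 306974 counts in Chow-fed WT, between 1953935 and 2162009 in HFD-fed WT, and between 1729416 and 2973432 in HFD-fed Sirt3 AKI. All Chow-fed WT totals lay below those of the other groups, so diet and depth cannot be told apart in comparisons with Chow-fed WT. Levels are given as counts per 1000000 of library totals after TMM scaling (normalised CPM). A microRNA was called changed at an adjusted p below 0.05 in edgeR's quasi-likelihood test over 414 tested microRNAs, which hold all 7 members. HFD-fed Sirt3 AKI replicates 2 and 3 carry one batch label and the other 7 libraries another, with no statement of what the batch was. The same replicates 2 and 3 held more miR-122-5p, the main liver microRNA, than all other libraries, and replicate 2 held the most. They held 25944 and 11214 normalised CPM, against 5676 in replicate 1, 3370 to 6507 in Chow-fed WT, and at most 4758 in HFD-fed WT. Summed over 4 hepatocyte markers, the level was 31802 in replicate 2, 15432 in replicate 3 and 9295 in replicate 1. That sum was at most 13958 in Chow-fed WT and 8024 in HFD-fed WT. In replicate 2 most of it was miR-122-5p, and the 4 markers did not move as one. In HFD-fed Sirt3 AKI over Chow-fed WT, miR-122-5p was called higher (1.52, edgeR adjusted p = 0.0172). miR-192-5p was called lower (-0.86, edgeR adjusted p = 0.00184), and miR-194-5p (-0.05) and miR-122-3p (1.26) were not called. Batch label and level of liver markers cannot be told apart within HFD-fed Sirt3 AKI. Some marker microRNAs of each of red cells, platelets, lymphocytes, endothelium, liver and muscle were counted in these vesicle preparations. Of the lists, 2 of 6 striated muscle markers and 1 of 4 hepatocyte markers were at 0 in at least 1 library. In such a mixed pool, fewer vesicles of one origin and less microRNA per vesicle cannot be told apart.

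Levels of the members spanned 3 orders of magnitude. They are compared by counts because each member is 21 or 22 bases long. How evenly the libraries captured different sequences was not tested. miR-16-5p was the most counted of all microRNAs in each of the 9 libraries and held between 97.8% and 99.0% of the counts of the 6 members of its seed. In Chow-fed WT its level was 122474 ± 6753 normalised CPM (SD, n = 3). miR-15b-5p followed at 1146 ± 105. miR-15a-5p (589 ± 4.63) and miR-322-5p (578 ± 61.7) came next and did not differ beyond their spread. miR-195a-5p (110 ± 20.1), miR-497a-5p (85.7 ± 20.7) and miR-15b-3p (80.8 ± 10.9) were lowest, with overlapping libraries. In HFD-fed WT the order changed at the low end, where miR-15b-3p (173 ± 16.3) stood above miR-195a-5p (104 ± 21.3) and miR-497a-5p (55.2 ± 12.1) with no overlap.

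After TMM scaling, miR-16-5p and miR-15b-3p were higher in vesicles of HFD-fed WT than of Chow-fed WT, by a similar factor, and the other members were not called changed. In HFD-fed WT against Chow-fed WT, 2 of 7 members were called, both higher; of all 414 tested microRNAs, 37.7% were called and 21.5% were called higher. In 4 of 7 members each HFD-fed WT library stood above all Chow-fed WT libraries, which was so for 30.9% of tested microRNAs. The median log2 fold change of the 6 members of the shared seed was 0.21, against 0.15 over all tested microRNAs.

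miR-16-5p stood at 116935, 120490 and 129996 normalised CPM in the Chow-fed WT libraries. In HFD-fed WT it stood at 229190, 267253 and 282688, and in HFD-fed Sirt3 AKI at 213085, 123085 and 185752. The HFD-fed WT libraries were all above the other 6, and replicate 2 of HFD-fed Sirt3 AKI lay within the range of Chow-fed WT. The fold of HFD-fed WT over Chow-fed WT was 2.12 (log2 fold change 1.08, SE 0.18, edgeR adjusted p = 0.000594).

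miR-15b-3p is the minor arm of the miR-15b precursor. Its Chow-fed WT libraries held 68.8, 83.5 and 90.2 normalised CPM, from 27, 32 and 27 counts. The HFD-fed WT libraries held 156, 189 and 174 from 281, 290 and 263 counts. The HFD-fed Sirt3 AKI libraries held 123, 92.5 and 94.7 from 342, 175 and 181 counts. The 3 groups did not overlap, with Chow-fed WT lowest and HFD-fed WT highest. The fold of HFD-fed WT over Chow-fed WT was 2.15 (log2 fold change 1.10, SE 0.20, edgeR adjusted p = 0.00137).

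**Figure D1:**
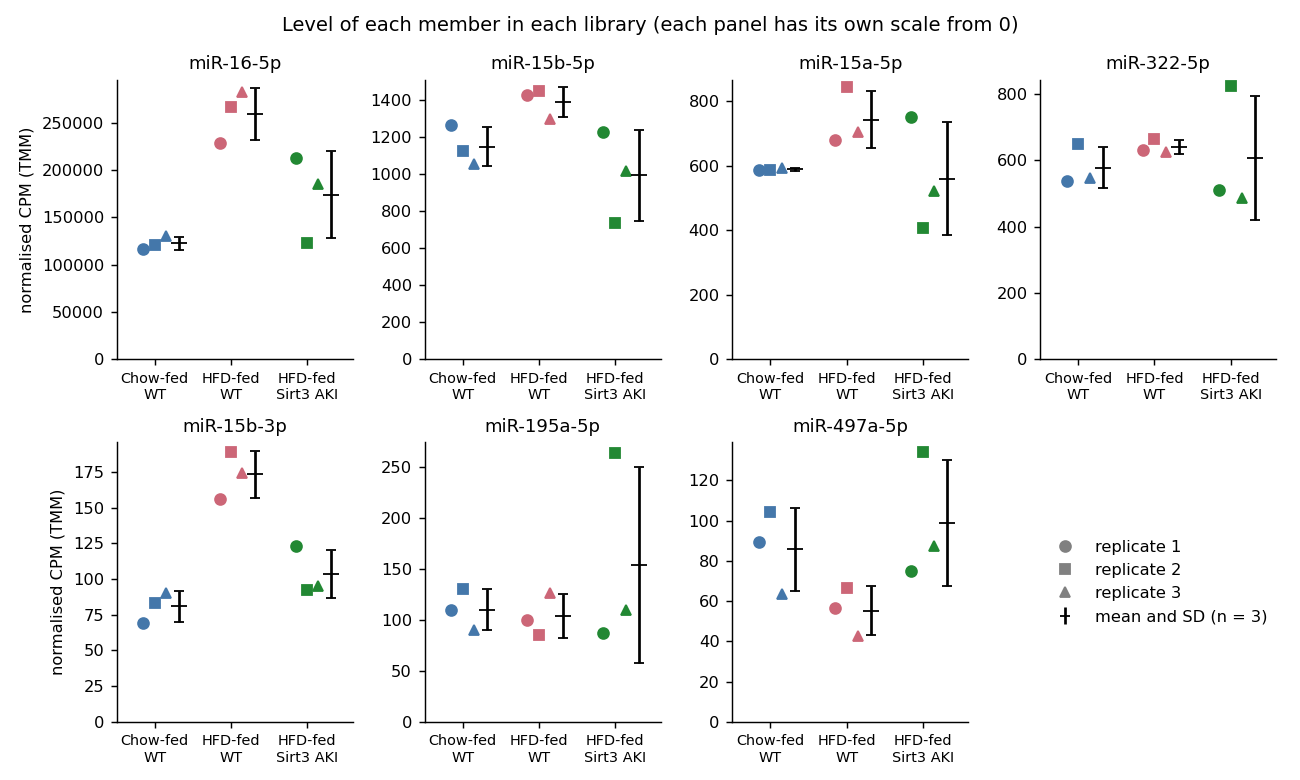
Level of each member in each library, in normalised CPM on a linear axis from 0 that differs between panels; points are libraries, and bars give the mean and SD of 3 libraries. For miR-16-5p and miR-15b-3p the HFD-fed WT libraries stand above all others, and in HFD-fed Sirt3 AKI the square of replicate 2 is the highest point for miR-195a-5p, miR-322-5p and miR-497a-5p and the lowest for miR-16-5p, miR-15a-5p, miR-15b-5p and miR-15b-3p.

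miR-15b-5p, the major product of the same precursor, stood at 1262, 1121 and 1055 normalised CPM in Chow-fed WT. It stood at 1428, 1445 and 1296 in HFD-fed WT, and at 1226, 733 and 1017 in HFD-fed Sirt3 AKI. HFD-fed WT was above the other groups with no overlap, by a small margin. Against Chow-fed WT its log2 fold change was 0.28 (SE 0.18), which was not called (edgeR adjusted p = 0.251).

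miR-15a-5p, which shares its transcript with the other miR-16 copy, had the tightest Chow-fed WT group, at 586, 587 and 595 normalised CPM. HFD-fed WT held 680, 845 and 705, and HFD-fed Sirt3 AKI held 752, 406 and 523. HFD-fed WT again lay above Chow-fed WT without overlap, while HFD-fed Sirt3 AKI spanned the range of Chow-fed WT on both sides. The log2 fold change of HFD-fed WT over Chow-fed WT was 0.34 (SE 0.21, edgeR adjusted p = 0.236). When HFD-fed Sirt3 AKI replicate 2 was left out of the fit, both were called in HFD-fed WT against Chow-fed WT, miR-15a-5p at 0.45 (edgeR adjusted p = 0.0258) and miR-15b-5p at 0.39 (edgeR adjusted p = 0.0194).

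miR-322-5p, the mouse counterpart of human miR-424, comes from an X-linked cluster known for roles in muscle differentiation. It stood at 538, 649 and 548 normalised CPM in Chow-fed WT, at 633, 665 and 624 in HFD-fed WT, and at 511, 824 and 487 in HFD-fed Sirt3 AKI. All groups overlapped, and the log2 fold change of HFD-fed WT over Chow-fed WT was 0.15 (SE 0.20, edgeR adjusted p = 0.611).

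miR-195a-5p and miR-497a-5p are products of 1 cluster, known for cell cycle arrest in muscle and other tissues. miR-195a-5p held 110, 130 and 90.2 normalised CPM in Chow-fed WT, 99.5, 84.7 and 127 in HFD-fed WT, and 87.2, 264 and 110 in HFD-fed Sirt3 AKI. Apart from replicate 2 of HFD-fed Sirt3 AKI, the libraries of all groups covered one range, and the log2 fold change of HFD-fed WT over Chow-fed WT was -0.09 (SE 0.39, edgeR adjusted p = 0.874). miR-497a-5p held 89.2, 104 and 63.5 in Chow-fed WT, 56.7, 66.4 and 42.5 in HFD-fed WT, and 74.9, 134 and 87.4 in HFD-fed Sirt3 AKI. HFD-fed WT was the lowest group and overlapped Chow-fed WT in one pair of libraries, with a log2 fold change of -0.64 (SE 0.30, with an edgeR adjusted p = 0.12). miR-497a-5p was called lower with only the groups compared (-0.72, edgeR adjusted p = 0.021). It was also called on library totals without the erythroid markers (-1.14, edgeR adjusted p = 0.0201). By limma on log2(TPM + 1) it was the 1 member called (-1.34, limma adjusted p = 0.0121).

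These directions depended on the scaling. Without the scaling factors, on library totals alone, the middle log2 fold change over all 414 tested microRNAs (their median) in HFD-fed WT over Chow-fed WT moved by -0.72, from 0.15 to -0.57, and with DESeq2 size factors it moved by -0.11. On library totals 20 tested microRNAs were called higher and 143 lower, against 89 and 67 with the main scaling and 71 and 77 with DESeq2 size factors. The members called then were 2 lower, against 34.5% of tested microRNAs. miR-16-5p then had a log2 fold change of 0.35 (edgeR adjusted p = 0.0589) and miR-15b-3p one of 0.37 (edgeR adjusted p = 0.171), and neither was called. miR-15b-5p fell by 0.45 (edgeR adjusted p = 0.0336) and miR-497a-5p fell by 1.37 (edgeR adjusted p = 0.00878), while miR-15a-5p, miR-322-5p and miR-195a-5p had values of -0.40, -0.58 and -0.82 that were not called. Relative to the median of all tested microRNAs, miR-16-5p was higher by 0.93 with the main scaling and by 0.92 on library totals, and miR-15b-3p by 0.95 and 0.94. A change of scaling shifts all microRNAs by nearly the same amount, so this match was fixed in advance. Members that were not called matched as well, such as miR-322-5p (-0.006 and -0.013). With DESeq2 size factors, where 17.1% of tested microRNAs were called higher, miR-16-5p and miR-15b-3p stayed called, at 0.97 (edgeR adjusted p = 0.00243) and 0.99 (edgeR adjusted p = 0.00435).

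**Figure D2:**
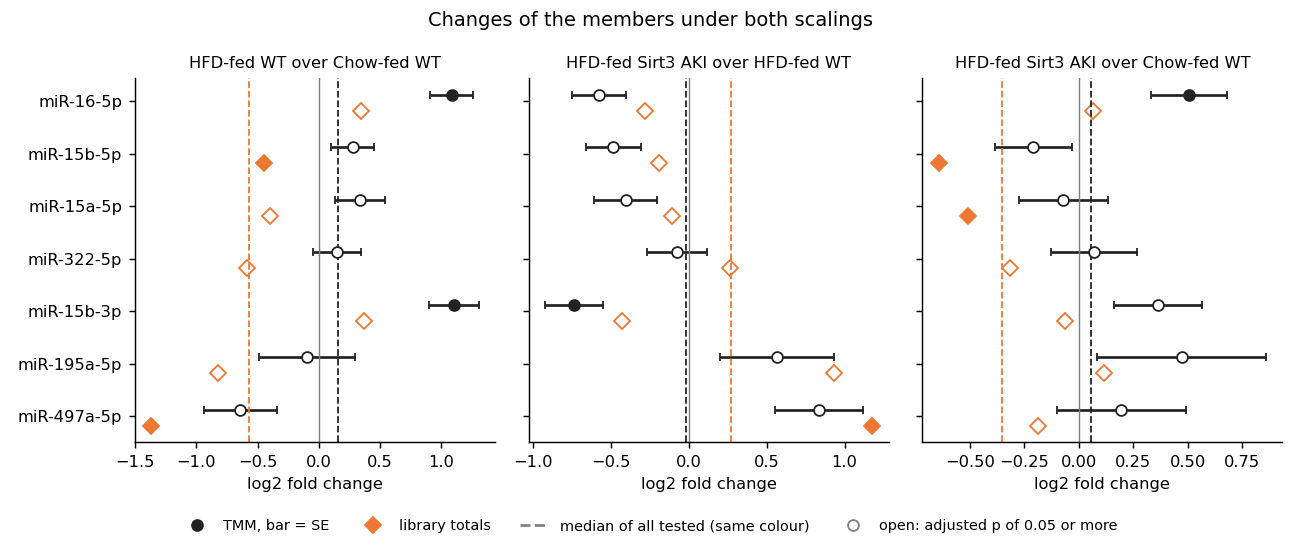
Log2 fold change of each member in the 3 comparisons, with the main scaling (circles, bars give the SE) and on library totals (diamonds); filled symbols have an adjusted p below 0.05 and dashed lines give the median of all tested microRNAs under the same scaling. In HFD-fed WT over Chow-fed WT, miR-16-5p and miR-15b-3p lie right of the dashed line of their own colour by 0.92 to 0.95 under both scalings. Each member keeps nearly the same distance to that line, because a change of scaling shifts all microRNAs together. miR-15b-5p lies at 0.28 with the main scaling and at -0.45 on library totals.

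Ratios within a library do not depend on that scaling, while a share of counts is the scaling by library totals and moves with the abundant microRNAs in the total. miR-16-5p took 14.9%, 15.8% and 17.3% of all counts in Chow-fed WT, 19.1%, 20.2% and 21.8% in HFD-fed WT, and 19.9%, 13.5% and 16.8% in HFD-fed Sirt3 AKI. The HFD-fed WT shares lay above those of Chow-fed WT without overlap, as they did for 8.94% of tested microRNAs (means 20.4% and 16%, two-sided exact permutation p = 0.1, the smallest that 3 libraries against 3 allow). With the erythroid markers taken out of the totals, the difference in share went from 4.37 to 10.4 points in HFD-fed WT over Chow-fed WT and from 0.729 to 5.06 points in HFD-fed Sirt3 AKI over Chow-fed WT. Those markers held 24.0% of counts in Chow-fed WT, 35.2% in HFD-fed WT and 35.7% in HFD-fed Sirt3 AKI (means). Taking them out thus widens both differences by arithmetic. With HFD-fed Sirt3 AKI as the first group, the shares of miR-16-5p in all counts overlapped both others (exact permutation p = 0.2 against HFD-fed WT and 0.8 against Chow-fed WT). A total of 33 such tests were run, 11 quantities in 3 comparisons, and after adjustment the smallest p was 0.206, so none passed.

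Relative to miR-16-5p, the 4 members of its seed compared with it (miR-15a-5p, miR-15b-5p, miR-322-5p and miR-195a-5p) had lower ratios in HFD-fed WT than in Chow-fed WT, without passing after adjustment. With the main scaling, 87.7% of tested microRNAs had a lower log2 fold change than miR-16-5p in that comparison, and their median lay 0.93 below it. Lower ratios to miR-16-5p are thus not particular to these members. The share of all tested microRNAs without overlap in such a ratio was not computed. One miR-15a-5p was counted per 207 miR-16-5p in Chow-fed WT, per 349 in HFD-fed WT and per 312 in HFD-fed Sirt3 AKI (geometric means). One miR-15b-5p was counted per 107, 186 and 175. The log2 ratio to miR-16-5p differed between HFD-fed WT and Chow-fed WT by -0.75 for miR-15a-5p, -0.80 for miR-15b-5p, -0.93 for miR-322-5p and -1.19 for miR-195a-5p. In each of these 4 ratios the groups did not overlap (exact permutation p = 0.1, adjusted 0.206). HFD-fed Sirt3 AKI also lay below Chow-fed WT without overlap for miR-15a-5p (-0.59) and miR-15b-5p (-0.71), with exact permutation p = 0.1 for both, and overlapped Chow-fed WT for miR-322-5p and miR-195a-5p, where replicate 2 lay above all Chow-fed WT libraries.

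The ratios of 2 pairs differed by less than the spread between libraries in HFD-fed WT against Chow-fed WT; these were picked after their values were seen and carry no test. One miR-15b-3p was counted per 1497 miR-16-5p in Chow-fed WT, per 1496 in HFD-fed WT and per 1649 in HFD-fed Sirt3 AKI. Its log2 ratio to miR-16-5p differed by 0.0015 between HFD-fed WT and Chow-fed WT, with a pooled SD of 0.12. The log2 ratio of miR-15a-5p to miR-15b-5p, from different chromosomes, differed by 0.047 in HFD-fed WT over Chow-fed WT, with a pooled SD of 0.14. The log2 ratio of miR-195a-5p to miR-497a-5p was 0.37 ± 0.11 in Chow-fed WT, 0.91 ± 0.62 in HFD-fed WT and 0.51 ± 0.41 in HFD-fed Sirt3 AKI (SD, n = 3), and it was among the tested ratios, with overlap in all comparisons (exact permutation p = 0.2 for HFD-fed WT against Chow-fed WT, adjusted 0.3).

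**Figure D3:**
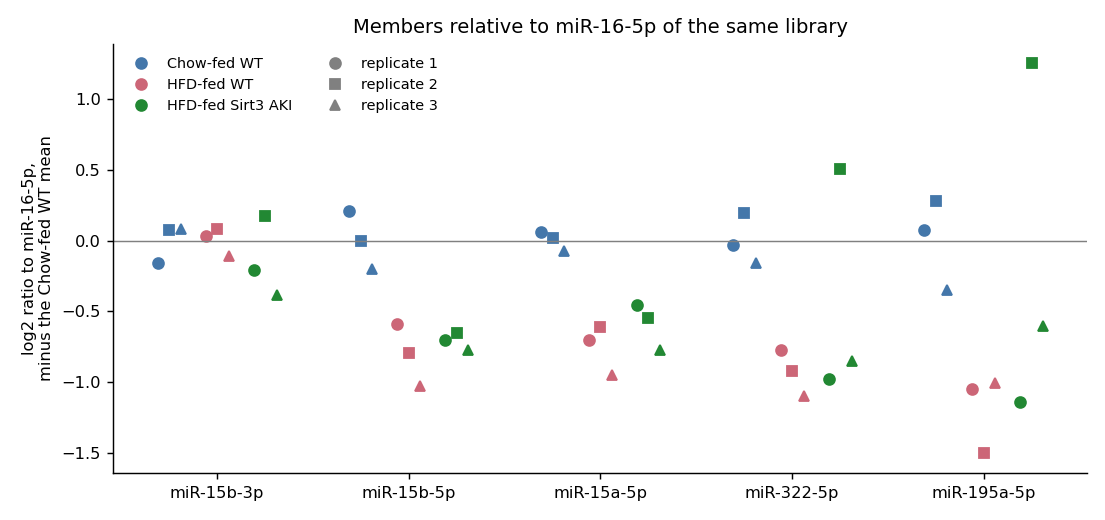
Log2 ratio of 5 members to miR-16-5p of the same library, with the mean of Chow-fed WT set to 0; each point is 1 library and shapes give replicates. For miR-15a-5p and miR-15b-5p all 6 libraries on the high fat diet lie below all Chow-fed WT libraries, for miR-15b-3p the 3 groups overlap, and replicate 2 of HFD-fed Sirt3 AKI is the highest point for miR-322-5p and miR-195a-5p.

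The 3p arm of miR-15b took a larger share of its precursor's counts in HFD-fed WT than in Chow-fed WT. It made up 5.17%, 6.93% and 7.87% of the counts of both arms in Chow-fed WT, with exact 95% binomial intervals from 3.44% to 7.44%, 4.79% to 9.64% and 5.25% to 11.2%. In HFD-fed WT it made up 9.86%, 11.6% and 11.9%, and in HFD-fed Sirt3 AKI 9.13%, 11.2% and 8.52%. The HFD-fed WT libraries all lay above Chow-fed WT, as did those of HFD-fed Sirt3 AKI, which overlapped HFD-fed WT. The intervals hold counting error alone, because PCR copies without identifiers are not separate molecules, and the interval of Chow-fed WT replicate 3 overlaps those of all HFD-fed WT libraries.

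The log2 ratio of the 3p to the 5p arm of miR-15b rose by 0.80 in HFD-fed WT over Chow-fed WT (SE 0.24, adjusted p = 0.0309 by limma over 103 precursors with both arms tested). Of these 103 precursors, 35.0% were called in that comparison, and in 15.5% HFD-fed WT lay above Chow-fed WT without overlap. The change of miR-15b ranked 31 by p and 15 from the highest change. The exact permutation test over the 6 libraries gave p = 0.1. The difference was -0.23 in HFD-fed Sirt3 AKI over HFD-fed WT (limma adjusted p = 0.663, exact permutation p = 0.2), where none of the 103 precursors (0%) was called. It was 0.57 in HFD-fed Sirt3 AKI over Chow-fed WT (limma adjusted p = 0.106, exact permutation p = 0.1), against 31.1% of precursors called and 16.5% above without overlap. The call in HFD-fed WT over Chow-fed WT was lost in the larger batch alone (0.80, limma adjusted p = 0.0634) and without Chow-fed WT replicate 1 (0.62, limma adjusted p = 0.0847), HFD-fed WT replicate 2 (0.77, limma adjusted p = 0.0794) or HFD-fed WT replicate 3 (0.75, limma adjusted p = 0.0973).

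The arms of miR-195a moved the other way; this precursor was singled out after its values were seen. The mature sequence of the minor arm, with its own seed in capitals, is the following.
miR-195a-3p: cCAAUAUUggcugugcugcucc

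The share of miR-195a-3p in both arms was 37.7%, 26.5% and 32.5% in Chow-fed WT, 14.8%, 11% and 12% in HFD-fed WT, and 7.63%, 4.95% and 7.08% in HFD-fed Sirt3 AKI. The 3 groups did not overlap, although the minor arm had only 13 to 31 counts in any library. A lower ratio without overlap was found in 30.1% of precursors in HFD-fed WT over Chow-fed WT, in 13.6% in HFD-fed Sirt3 AKI over HFD-fed WT and in 33.0% in HFD-fed Sirt3 AKI over Chow-fed WT. The log2 arm ratio fell by 1.72 in HFD-fed WT over Chow-fed WT (SE 0.28, limma adjusted p = 0.00215 over the same 103 precursors). It differed by -1.04 in HFD-fed Sirt3 AKI over HFD-fed WT (limma adjusted p = 0.0831). The 3p shares of miR-15a (means of 0.767% in Chow-fed WT, 0.837% in HFD-fed WT and 0.768% in HFD-fed Sirt3 AKI) and of miR-322 (4.32%, 4.53% and 5.06%) overlapped in all groups.

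**Figure D4:**
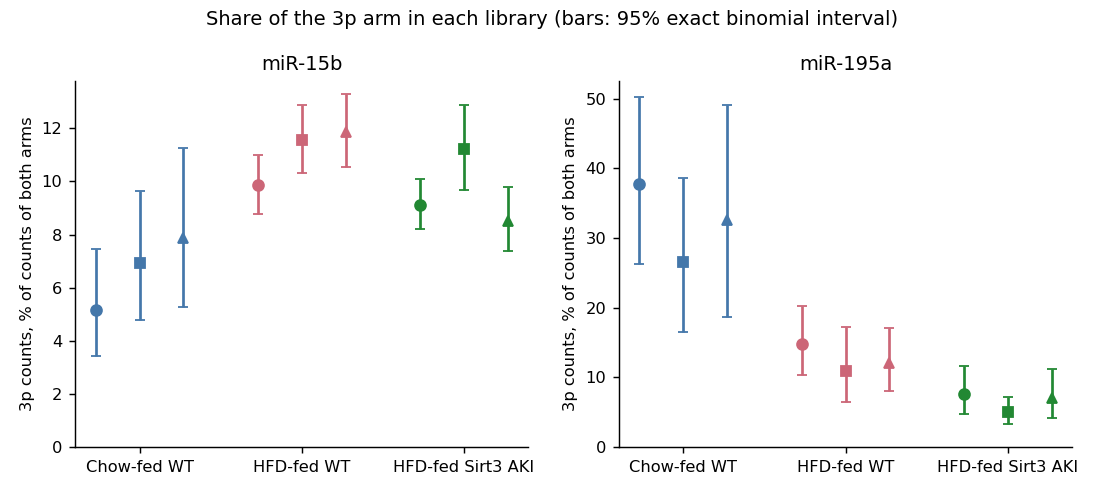
Share of the 3p arm among the counts of both arms of miR-15b (left) and miR-195a (right) in each library, in percent from 0, with bars for exact 95% binomial intervals; shapes give replicates as in the plot of levels. The share of miR-15b is lowest in Chow-fed WT (5.17% to 7.87%), and that of miR-195a is highest in Chow-fed WT (26.5% to 37.7%) and lowest in HFD-fed Sirt3 AKI (4.95% to 7.63%).

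With Sirt3 overexpression on the high fat diet, miR-15b-3p was lower than in wild type on that diet, and it was the one member called. In HFD-fed Sirt3 AKI over HFD-fed WT, 1 of 7 members was called, lower; over all tested microRNAs 8.94% were called, and 7.49% were called lower. In 3 members each HFD-fed Sirt3 AKI library lay below all HFD-fed WT libraries, against 17.4% of all tested microRNAs, and miR-497a-5p lay above them, against 8.70%. The median log2 fold change of the 6 members of the shared seed was -0.24, and that of all tested microRNAs was -0.02. This comparison shares the HFD-fed WT libraries with the one before.

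miR-15b-3p fell by 0.74 on the log2 scale in HFD-fed Sirt3 AKI over HFD-fed WT (SE 0.19, fold 0.599, edgeR adjusted p = 0.0335). miR-16-5p had a log2 fold change of -0.58 (SE 0.17, with an edgeR adjusted p = 0.0604), miR-15b-5p one of -0.49 (SE 0.17, edgeR adjusted p = 0.107) and miR-15a-5p one of -0.41 (SE 0.20, edgeR adjusted p = 0.226). miR-497a-5p had a log2 fold change of 0.84 (SE 0.28, with an edgeR adjusted p = 0.0855), miR-195a-5p one of 0.56 (SE 0.37, edgeR adjusted p = 0.351) and miR-322-5p one of -0.08 (SE 0.19, edgeR adjusted p = 0.821). Of these 6, none was called at the threshold. Replicate 2 of HFD-fed Sirt3 AKI was the lowest library of its group for miR-16-5p and both 5p arms of miR-15 and the highest for miR-195a-5p, miR-322-5p and miR-497a-5p. The part of that library's other markers in these values was not tested.

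The call for miR-15b-3p was lost with DESeq2 size factors (-0.63, edgeR adjusted p = 0.0739), with no filter (-0.70, edgeR adjusted p = 0.0788), with only the groups compared (-0.61, edgeR adjusted p = 0.109) and by limma on log2(TPM + 1) (-0.44, limma adjusted p = 0.185). It was lost too with a batch term (-0.49, edgeR adjusted p = 0.419), in the larger batch alone, where HFD-fed Sirt3 AKI has 1 library (-0.35, edgeR adjusted p = 0.37), and on library totals with the erythroid markers (-0.43, edgeR adjusted p = 0.144) and without them (-0.42, edgeR adjusted p = 0.129). It was also lost with the library left out being any of the 3 of Chow-fed WT or of HFD-fed WT (adjusted p from 0.0537 to 0.151) or HFD-fed Sirt3 AKI replicate 3 (-0.67, adjusted p = 0.126). It stayed without HFD-fed Sirt3 AKI replicate 2 (-0.62, edgeR adjusted p = 0.0408). Without HFD-fed Sirt3 AKI replicate 1, 5 members were called: miR-16-5p (-0.74), miR-15a-5p (-0.67), miR-15b-5p (-0.65) and miR-15b-3p (-0.88) lower and miR-497a-5p (1.01) higher. On library totals, miR-497a-5p was the member called (1.18, edgeR adjusted p = 0.041), where 8.70% of tested microRNAs were called higher, and 36 tested microRNAs were called higher and 11 lower, against 6 and 31 with the main scaling and 10 and 14 with DESeq2 size factors. The median of all tested microRNAs moved by 0.29 on library totals.

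In HFD-fed Sirt3 AKI over Chow-fed WT, a contrast that joins diet and genotype, 1 of 7 members was called, against 39.9% of tested microRNAs called and 20.3% called higher. miR-16-5p rose by 0.51 on the log2 scale (SE 0.17, edgeR adjusted p = 0.0387), although its groups overlapped through replicate 2. Without that library the value was 0.86 (edgeR adjusted p = 2.12e-05) and miR-15b-3p was also called (0.61, edgeR adjusted p = 0.032). The call for miR-16-5p was lost with DESeq2 size factors (0.50, edgeR adjusted p = 0.0581), on library totals (0.06, edgeR adjusted p = 0.712), on library totals without the erythroid markers (0.31, edgeR adjusted p = 0.0958), with only the groups compared (0.48, edgeR adjusted p = 0.0815), by limma on log2(TPM + 1) (0.049, limma adjusted p = 0.821), by DESeq2 (0.50, DESeq2 adjusted p = 0.0555) and without any of the Chow-fed WT libraries, HFD-fed WT replicates 2 or 3, or HFD-fed Sirt3 AKI replicates 1 or 3 (adjusted p from 0.0504 to 0.111). miR-15b-3p had a log2 fold change of 0.36 (edgeR adjusted p = 0.178) without overlap between its groups, as did 22.9% of tested microRNAs, and the others lay between -0.21 (miR-15b-5p) and 0.47 (miR-195a-5p) and were not called. On library totals miR-15a-5p (-0.51, edgeR adjusted p = 0.043) and miR-15b-5p (-0.64, edgeR adjusted p = 0.00578) were called lower, as were 31.4% of tested microRNAs, the split of all calls went from 84 higher and 81 lower to 40 and 130, and the median moved by -0.41.

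Among red cell microRNAs, miR-92a-3p, miR-25-3p and both arms of miR-486 rose in HFD-fed WT over Chow-fed WT, while miR-451a and miR-144-3p were not called and miR-144-5p fell. Of 10 erythroid markers, 6 rose and 1 fell in that comparison, against 21.5% of tested microRNAs called higher and 16.2% called lower. The values were 2.18 for miR-92a-3p (SE 0.16, edgeR adjusted p = 4.47e-06), the largest of the 10, 0.39 for miR-451a (SE 0.22, edgeR adjusted p = 0.199), 0.18 for miR-144-3p (SE 0.18, edgeR adjusted p = 0.483) and -0.77 for miR-144-5p (SE 0.17, edgeR adjusted p = 0.00453). With DESeq2 size factors (17.1% of tested microRNAs higher, 18.6% lower) and on library totals (4.83% higher, 34.5% lower) the list again had 6 higher and 1 lower. In HFD-fed Sirt3 AKI over HFD-fed WT, 5 of the 10 fell, against 7.49% of tested microRNAs: miR-144-3p, miR-144-5p, miR-451a, and the 3p arms of miR-486a and miR-486b. With DESeq2 size factors 0 were higher and 2 lower (3.38% of tested microRNAs lower), and on library totals 1 was higher and 2 lower (8.70% and 2.66% of tested microRNAs). None of the 10 was at 0 in any library. Their summed level lay between 173419 and 204259 normalised CPM in Chow-fed WT, between 422406 and 476337 in HFD-fed WT and between 303930 and 426936 in HFD-fed Sirt3 AKI. miR-486a-5p and miR-486b-5p have identical counts and each enters this sum, and the 3p arms of both also gave identical values. Each arm is thus counted double among the 6 that rose, and the 3p arm is counted double among the 5 that fell (edgeR adjusted p = 0.0495). In HFD-fed WT over Chow-fed WT, 2 of 2 endothelial, 3 of 4 platelet and myeloid and 2 of 3 lymphocyte markers were called higher. So were 2 of 4 tested striated muscle markers, while 1 lymphocyte, 1 hepatocyte and 1 stromal and smooth muscle marker were called lower. In HFD-fed Sirt3 AKI over HFD-fed WT, 2 of 2 endothelial and 1 of 4 platelet and myeloid markers fell. There 1 of 4 hepatocyte markers rose. Calls were thus not particular to red cell markers. The part of red cell material in the changes of miR-16-5p was not tested.

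Against miR-451a, the most specific red cell microRNA, miR-16-5p was higher in both groups on the high fat diet than in Chow-fed WT, without passing after adjustment. The log2 ratio of miR-16-5p to miR-451a was 1.51 ± 0.26 in Chow-fed WT, 2.22 ± 0.30 in HFD-fed WT and 2.44 ± 0.015 in HFD-fed Sirt3 AKI (SD, n = 3), and no groups overlapped. The highest HFD-fed WT library (2.428) nearly met the lowest HFD-fed Sirt3 AKI library (2.430). Against miR-486a-5p, also made in red cells, miR-16-5p was lower: 1.00 ± 0.18, 0.61 ± 0.12 and 0.24 ± 0.29, with HFD-fed WT and HFD-fed Sirt3 AKI overlapping. HFD-fed WT over Chow-fed WT thus differed by 0.71 in the first ratio and by -0.40 in the second (exact permutation p = 0.1 for each, adjusted 0.206). The ratio of miR-451a to miR-23a-3p, used in serum as an index of red cell lysis, was 2.97 ± 0.18 in Chow-fed WT and 3.16 ± 0.22 in HFD-fed WT on the log2 scale, with overlap (exact permutation p = 0.5). It was 2.56 ± 0.34 in HFD-fed Sirt3 AKI, below HFD-fed WT by 0.60 without overlap (exact permutation p = 0.1).

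The other products of the members' clusters were a list of 14, of which 13 were tested. In HFD-fed WT over Chow-fed WT 2 of the 13 were called higher and 1 lower, against 21.5% and 16.2% of all tested microRNAs. miR-503-5p, the neighbour of miR-322 whose seed differs in 1 base, stood at 214, 201 and 224 normalised CPM in Chow-fed WT, at 283, 362 and 378 in HFD-fed WT, and at 309, 317 and 334 in HFD-fed Sirt3 AKI. All 6 libraries on the high fat diet lay above Chow-fed WT, and the log2 fold change of HFD-fed WT over Chow-fed WT was 0.68 (SE 0.15, edgeR adjusted p = 0.00526). miR-351-5p, of the same X-linked cluster, rose by 0.68 (SE 0.17, edgeR adjusted p = 0.00849). On library totals these values were -0.056 for miR-503-5p and -0.047 for miR-351-5p, neither called, and the list had 0 members called higher and 2 lower, against 4.83% and 34.5% of tested microRNAs.

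miR-195a-3p fell by 1.80 in HFD-fed WT over Chow-fed WT (SE 0.37, edgeR adjusted p = 0.0028), from 66.3, 46.9 and 43.4 normalised CPM to 17.2, 10.4 and 17.2. Its Chow-fed WT libraries thus lay above all others, since HFD-fed Sirt3 AKI held 7.20, 13.7 and 8.37. EdgeR called none of the 13 in HFD-fed Sirt3 AKI over HFD-fed WT, and 1 had an unadjusted p below 0.05, miR-16-1-3p, the minor arm of the Mir16-1 hairpin (-0.95, SE 0.31, edgeR adjusted p = 0.0754). In HFD-fed Sirt3 AKI over Chow-fed WT, miR-503-5p (0.59) and miR-351-5p (0.87) were called higher, and miR-195a-3p (-2.43) and miR-16-1-3p (-1.51) lower, against 20.3% and 19.6% of tested microRNAs. The last 2 were also called lower on library totals (-2.82 and -1.93), and no member of the list was called higher there.

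The microRNAs whose log2 level followed a member most closely over the 9 libraries were named by Pearson's r among 405 known microRNAs, as a description. For miR-16-5p they were miR-106b-3p (0.96), let-7j (0.96), miR-15b-3p (0.94), miR-423-5p (0.93) and miR-421-3p (0.93). For miR-15b-5p they were miR-130b-3p (0.97), let-7i-5p (0.94), miR-451a (0.91), miR-15a-5p (0.91) and miR-130a-3p (0.90). For miR-15a-5p they were miR-15b-5p (0.91), miR-130b-3p (0.90), miR-130a-3p (0.89), miR-451a (0.88) and let-7i-5p (0.87). miR-16-5p thus ranked neither 5p arm of miR-15 among its 5 closest, and they did not rank it. The points share groups, depth and scaling factors.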

How the data were processed

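Small RNA libraries came from serum vesicles precipitated with a commercial reagent, per the labels' protocols. The authors deposited whole-number read counts of 1064 known and 105 predicted mature microRNAs, and TPM values that equal counts per 1000000 of each library total. The submitters' processing notes list Bowtie 0.12.2 and mm8 without saying what for. How reads were trimmed and counted, and against which reference, is not given in the sources used here.

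Counts were analysed in R 4.3.3 with edgeR 4.0.16 (filterByExpr with a count minimum of 10, TMM scaling, quasi-likelihood test, group means over all 9 libraries, Benjamini-Hochberg adjustment). Rows that were not tested held 0.0543% of counts. Arm ratios were log2 values with 0.5 added to each count, tested with limma 3.58.1. Ratios and shares were tested by two-sided exact permutation, written in Python 3.11.15. Exact binomial intervals came from SciPy 1.17.1. Alternatives were DESeq2 1.42.0, limma on log2 of deposited TPM plus 1, other scalings, filters, batch terms and libraries left out. The edgeR and DESeq2 tests, and limma on arm ratios, were run on data simulated from the means and spread of these libraries. The permutation tests were not tested in this way.

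The members and all lists were chosen with earlier results of these data known. Named microRNAs are the members, the other products of their clusters, markers and the 5 closest by correlation.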

Additional observations from a re-analysis of the deposited data

How the results depend on the processing

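In HFD-fed WT over Chow-fed WT, miR-16-5p and miR-15b-3p kept their direction under all alternatives run and stayed called under all but library totals and limma on TPM. Counts of called members were moved by several alternatives, some of which used fewer samples, and the cause was not tested. Against 2 in HFD-fed WT over Chow-fed WT, 4 members were called with no filter and in the larger batch, where HFD-fed Sirt3 AKI has 1 library whose spread is assumed to be that of the other groups, and 1 by limma on log2(TPM + 1) or log2(TPM + 10). Against 1 in HFD-fed Sirt3 AKI over HFD-fed WT, 2 were called with no filter (miR-16-5p and miR-497a-5p, with miR-15b-3p lost) and with DESeq2 (miR-15b-3p and miR-497a-5p). The count there was 0 with DESeq2 size factors in edgeR, limma on TPM with either pseudocount, only the groups compared, the batch term and the larger batch. Against 1 in HFD-fed Sirt3 AKI over Chow-fed WT, the count was 0 with DESeq2, its size factors, library totals without the erythroid markers and only the groups compared. It was 2 on library totals and by limma on log2(TPM + 10), where miR-15a-5p and miR-15b-5p were called lower and miR-16-5p was not called. By limma on log2(TPM + 1) it was 1, miR-15b-5p, lower. In the larger batch it was 3, from a single HFD-fed Sirt3 AKI library. All tested microRNAs called in HFD-fed Sirt3 AKI over HFD-fed WT numbered 37, and 24 with DESeq2 size factors, 61 with DESeq2, 3 with only the groups compared, 1 with the batch term and 23 in the larger batch. With single libraries left out they ranged from 13 (without HFD-fed WT replicate 3) to 102 (without HFD-fed Sirt3 AKI replicate 1), and called members from 0 to 5; in HFD-fed Sirt3 AKI over Chow-fed WT called members ranged from 0 to 2 and in HFD-fed WT over Chow-fed WT from 2 to 4. The miR-15b arm ratio in HFD-fed WT over Chow-fed WT ranged from 0.62 to 0.94 and was 0.80 in the larger batch (limma adjusted p = 0.0634).

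Members that turned direction were not called in the main comparison. In HFD-fed WT over Chow-fed WT, on library totals, on library totals without the erythroid markers, and by limma on log2(TPM + 1) and log2(TPM + 10), miR-15a-5p had -0.40, -0.17, -0.40 and -0.40, miR-15b-5p -0.45, -0.22, -0.45 and -0.45, and miR-322-5p -0.58, -0.35, -0.58 and -0.57. miR-195a-5p had 0.13 with no filter and from -0.26 to 0.070 with libraries left out. In HFD-fed Sirt3 AKI over HFD-fed WT, miR-322-5p had 0.27, 0.27, 0.19 and 0.19 in the same order, 0.019 with DESeq2 and with its size factors, 0.064 with only the groups compared, and from -0.32 to 0.065 with libraries left out. miR-15a-5p had 0.016 with the batch term and 0.16 in the larger batch, and miR-195a-5p -0.25 and -0.11, with a range from -0.051 to 0.85 with libraries left out.

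In HFD-fed Sirt3 AKI over Chow-fed WT, on library totals and by limma on log2(TPM + 1) and log2(TPM + 10), miR-15b-3p had -0.063, -0.068 and -0.063, miR-322-5p -0.32, -0.39 and -0.38 (-0.087 without the erythroid markers), and miR-497a-5p -0.19, -0.23 and -0.21. miR-195a-5p had -0.096 and -0.079 by limma. With no filter, the batch term and the larger batch, miR-15a-5p had 0.18, 0.35 and 0.55 and miR-15b-5p 0.043, 0.097 and 0.30. With the batch term and the larger batch, miR-195a-5p had -0.34 and -0.15 and miR-497a-5p -0.21 and -0.0084, and miR-322-5p had -0.18 with the batch term. With libraries left out the ranges were -0.32 to 0.28 for miR-15a-5p, -0.37 to 0.13 for miR-15b-5p, -0.021 to 0.77 for miR-195a-5p and -0.053 to 0.23 for miR-322-5p.

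Within the larger batch, ratios that moved by more than the spread were those of miR-15a-5p to miR-16-5p in HFD-fed Sirt3 AKI over Chow-fed WT (-0.45), of miR-195a-5p to miR-16-5p over HFD-fed WT (0.049) and over Chow-fed WT (-1.14), and of miR-16-5p to miR-486a-5p (-0.032 and -0.43). The share of counts of HFD-fed Sirt3 AKI then differed from HFD-fed WT by -0.46 points for the family and -0.47 for miR-16-5p, and from Chow-fed WT by 3.82 and 3.90. With the erythroid markers taken out of the totals, the family share differed by 10.3 points in HFD-fed WT over Chow-fed WT and 4.997 in HFD-fed Sirt3 AKI over Chow-fed WT, and that of miR-16-5p by 10.4 and 5.06. The wider differences follow by arithmetic from the larger share of those markers in the groups on the high fat diet.

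Replicate numbers are shared between groups, but same-numbered libraries deviated together with r from -0.063 to 0.17, so they were not taken as pairs. With a replicate block, 0 members were called in HFD-fed Sirt3 AKI over HFD-fed WT (miR-15b-3p -0.74, edgeR adjusted p = 0.0602), and 154, 31 and 161 of all tested microRNAs were called in the 3 comparisons, against 156, 37 and 165 without it. The lower depth of Chow-fed WT limits its minor arms most, with 27 to 32 counts of miR-15b-3p and 13 to 26 of miR-195a-3p.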
